A study of Mus musculus with 6 samples.

Results

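Semaphorins, plexins and neuropilins are the ligands and receptors of a guidance system, and their mRNAs were measured by RNA-seq in mouse neural stem cells (NSCs). The members were taken by gene symbol, as every gene named *Sema3* to *Sema7* with a letter from a to g, *Plxna* to *Plxnd* with a number, or *Nrp1* or *Nrp2*. This gave 31 of the 53379 genes in the deposited values, 20 semaphorins, 9 plexins and 2 neuropilins. The NSCs were derived from the cortex of embryos at E14.5, carried *Tbl1xr1* flox/flox in every library and were grown as neurospheres with bFGF and EGF, and GFP-positive cells were sorted after infection. The control group of 3 libraries (GFP replicates 1, 1_1 and 2) was infected with GFP. The other group of 3 libraries (Cre replicates 2, 2_2 and 3) was infected with Cre, the recombinase that removes the floxed exon of *Tbl1xr1*, which encodes a subunit of the NCOR corepressor complex. The comparison asks how the semaphorin system of NSCs differs when *Tbl1xr1* is targeted. The labels do not say whether the libraries of a group came from separate cultures or embryos, so the p-values measure the spread between these libraries, which may be partly technical.

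Semaphorins are secreted or membrane-bound proteins that steer growing axons and migrating cells, mostly by repulsion. Class 3 semaphorins are secreted, classes 4, 5 and 6 cross the membrane, and class 7 is held by a lipid anchor. Plexins are their signalling receptors and act inside the cell on small GTPases and on the cytoskeleton, whereas neuropilins bind most class 3 semaphorins on the outside and pass the signal on through a plexin of the A or D type. In the developing cortex the system is known for guiding axons, for placing migrating neurons and interneurons, and for contacts between progenitors.

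The values are normalized counts, reads per gene divided by 1 size factor per library, and the reads recovered from them were between 7510615 and 14828100 per library. *Tbl1xr1* itself had normalized counts between 2190 and 2721 in the GFP libraries and between 2905 and 3774 in the Cre libraries (log2 fold change 0.45, standard error 0.14, limma adjusted p = 0.06). Its mRNA was thus not lower in the Cre libraries. A count over the whole gene does not measure the floxed exon alone. The study checked genotype in the sorted cells and reports that *Tbl1xr1* mRNA and protein were absent, a check these values do not include. The whole-gene count here did not show that loss of mRNA. The groups are therefore called the libraries labelled GFP and Cre and every direction below is that of the labels. The NSC markers were high in both groups, with summed normalized counts of 43476 to 47096 in GFP and 46802 to 51560 in Cre, and 1 of 10 markers passed the test in each direction (*Sox9* higher, *Nes* lower). Of the astrocyte markers 3 of 6 tested were higher (*S100b*, *Slc1a2* and *Aqp4*) and none passed as lower, with sums of 3111 to 3411 in GFP and 5590 to 6568 in Cre. *S100b* alone had means of 238 ± 14.7 and 2064 ± 407 (SD, n = 3 each) and made up most of the difference in the sums. *Aldh1l1* had lower values in Cre without overlap, at means of 17.3 and 5.35, and did not pass (-1.65, limma adjusted p = 0.065), and *Gfap* had a mean under 10. Of the oligodendrocyte lineage markers 3 of 5 tested were higher (*Olig2*, *Pdgfra* and *Cspg4*) and none lower, with sums of 4754 to 6017 and 8655 to 9782. *Olig2* alone had means of 5157 ± 677 in GFP and 8380 ± 581 in Cre (SD, n = 3 each) and made up most of these sums. *Sox10* and *Mog* had means under 10. Of the neuron markers 1 of 6 tested was lower (*Gap43*) and none higher, with sums of 17539 to 18567 and 14756 to 16744, and *Stmn2* was at 0 in all libraries. *Gap43* alone had means of 8711 in GFP and 5196 in Cre. *Map2* had higher values in Cre without overlap, at means of 9210 and 10541, and did not pass (0.19, limma adjusted p = 0.337). The log2 fold change was positive in 3 of the 6 and negative in 3. The endothelial markers *Cdh5* and *Cldn5*, the microglial marker *Tmem119* and the fibroblast markers *Col1a2* and *Pdgfrb* were at 0 in all 6 libraries. The sums over these lists were 26.7 to 40.4 in GFP and 14.3 to 19.4 in Cre for endothelial cells, 162 to 205 and 166 to 273 for microglia, nearly all of it *Csf1r*, and at most 20.6 for fibroblasts. In bulk RNA, fewer cells of a type and less RNA per cell cannot be told apart, and the part of the glial marker difference in the results below was not tested.

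Of the 31 members, 21 reached a mean normalized count of 10 over the 6 libraries and entered the test, which was limma on log2(normalized count + 1) with Benjamini-Hochberg adjustment over 14840 genes. At an adjusted p under 0.05, 4 of the 21 differed (19.0%), against 9.96% of all genes tested. *Plxnb3* was the 1 member that rose, against 4.74% of all genes that were higher, and *Plxnd1*, *Sema5a* and *Plxnb2* were the 3 that fell, against 5.22% of all genes that were lower. The log2 fold change of Cre over GFP was positive in 14 tested members and negative in 7, with a median of 0.18 beside a median of -0.001 over all genes. In 11 of the 21 (52.4%) the Cre libraries lay all above or all below every GFP library, which held for 30.3% of all genes tested. The remaining 17 tested members did not pass the test, and 10 members were under the filter on low values.

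Start regions of the 4 members that passed the test are shown because these are the genes the results turn on. Each sequence is a RefSeq window on GRCm38.p6 from 250 bases before a listed transcript start to 50 after it, 5′ to 3′ on the strand of the gene, and 26 of the 31 members had such a window. The listed start is the outermost start of the gene for *Sema5a* alone among the 4. It lies 547 bases inside the gene for *Plxnb3*, 334 for *Plxnd1* and 1230 for *Plxnb2*, whose windows are wholly within the gene, so the bases before their outermost starts were not examined. Capitals mark matches, on either strand, to AGGTCA (the core bound by many nuclear receptors, partners of the NCOR complex), to GCGGGA (part of the E2F motif) and to GGGCGG (the GC box). GCGGGA and GGGCGG can overlap each other. *Plxnb3* is read from chrX:73756853-73757152 on the plus strand, *Plxnb2* from chr15:89180739-89181038 on the minus strand, where the more upstream of 2 listed starts was taken, *Plxnd1* from chr6:115994956-115995255 on the minus strand and *Sema5a* from chr15:32244563-32244862 on the plus strand.

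Plxnb3: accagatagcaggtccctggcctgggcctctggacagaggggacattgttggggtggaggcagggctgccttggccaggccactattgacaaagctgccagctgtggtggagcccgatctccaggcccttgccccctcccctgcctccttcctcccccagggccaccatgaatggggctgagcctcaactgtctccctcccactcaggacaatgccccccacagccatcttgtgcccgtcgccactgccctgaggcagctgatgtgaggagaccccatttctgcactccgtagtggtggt
Plxnb2: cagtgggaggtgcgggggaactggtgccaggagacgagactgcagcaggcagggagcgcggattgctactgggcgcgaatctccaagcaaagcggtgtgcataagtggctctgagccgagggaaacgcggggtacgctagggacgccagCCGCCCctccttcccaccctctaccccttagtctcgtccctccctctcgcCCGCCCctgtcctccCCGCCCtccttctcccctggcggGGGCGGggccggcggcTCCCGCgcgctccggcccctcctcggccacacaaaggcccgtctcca
Plxnd1: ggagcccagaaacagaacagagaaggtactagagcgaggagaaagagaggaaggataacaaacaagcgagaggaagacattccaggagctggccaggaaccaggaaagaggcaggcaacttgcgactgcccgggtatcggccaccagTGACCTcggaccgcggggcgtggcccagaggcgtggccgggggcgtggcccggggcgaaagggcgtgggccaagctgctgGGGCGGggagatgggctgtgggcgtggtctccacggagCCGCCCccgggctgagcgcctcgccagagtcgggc
Sema5a: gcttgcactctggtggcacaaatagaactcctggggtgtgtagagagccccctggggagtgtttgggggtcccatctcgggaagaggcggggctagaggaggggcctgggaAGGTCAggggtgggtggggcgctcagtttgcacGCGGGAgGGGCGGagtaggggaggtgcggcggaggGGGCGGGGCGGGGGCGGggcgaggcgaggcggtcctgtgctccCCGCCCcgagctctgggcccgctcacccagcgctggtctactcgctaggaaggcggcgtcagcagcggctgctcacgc

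The listed window of *Plxnb3*, inside the gene, had 4 CpG dinucleotides and none of the 3 motifs. The windows of *Plxnb2*, *Plxnd1* and *Sema5a* had 27, 23 and 23 CpG, where the median over 32851 mouse promoter windows was 7. Such counts were common among the members, since the 14 tested members that did not pass had 2 to 42 CpG with a median of 25.5, 9 of them had at least 23, and 12 held a GC box. The window with 2 CpG was that of *Sema3a*, whose listed start lies 271962 bases inside the gene. Windows of *Nrp1*, *Plxna3*, *Plxnb1*, *Sema4c* and *Sema4g* also lay wholly within the gene. GC boxes numbered 4 in *Plxnb2*, 2 in *Plxnd1* and 5 in *Sema5a*, some of which overlap, and 35.7% of all windows held at least 1. AGGTCA was found once in *Plxnd1* and once in *Sema5a*, against 16.3% of all windows, and GCGGGA once in *Plxnb2* and once in *Sema5a*, against 20.0% of all windows. Among the 26 members with a window, 5 held AGGTCA, 12 held GCGGGA and 20 held a GC box. A match is a run of letters and not a binding site, and no binding was measured in these libraries.

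Among the secreted class 3 semaphorins, *Sema3a* and *Sema3c* were the members with enough reads to test, and neither passed. *Sema3a*, the classical repellent of cortical axons that acts through *Nrp1*, had normalized counts of 434, 410 and 356 in GFP replicates 1, 1_1 and 2 and of 540, 547 and 457 in Cre replicates 2, 2_2 and 3. Every Cre library lay above every GFP library, but the adjusted p did not pass (log2 fold change 0.36, standard error 0.14, limma adjusted p = 0.129). *Sema3c*, which binds both neuropilins and attracts some cortical axons, had 101, 96.5 and 117 in the GFP libraries and 70.6, 93.8 and 88.6 in the Cre libraries. The groups did not overlap here either, in the other direction (-0.32, standard error 0.20, limma adjusted p = 0.363). The other 5 class 3 genes had few reads. *Sema3b* had 0 to 9 reads in a library, *Sema3d* 2 to 18, *Sema3e* 1 to 6, *Sema3f* 1 to 5 and *Sema3g* 0 to 4. They were under the filter and did not enter the main test, so whether they differed was not assessed. *Sema3d* summed to 12 reads over the GFP libraries and 32 over the Cre libraries, which were also sequenced more deeply.

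The transmembrane class 4 had 3 tested members, all with values close together in the groups. *Sema4b* had 427, 369 and 373 in the GFP libraries and 463, 427 and 434 in the Cre libraries. The lowest Cre library lay barely above the highest GFP library, and the difference did not pass (0.18, standard error 0.13, limma adjusted p = 0.422). *Sema4c*, a ligand of plexin B2, ranged from 225 to 313 in GFP and from 247 to 283 in Cre (0.09, limma adjusted p = 0.789). *Sema4g* ranged from 65.8 to 78.9 and from 69.7 to 94.0 (0.18, limma adjusted p = 0.652). Of the class 4 genes under the filter, *Sema4d*, the best known ligand of plexin B1, had 1 to 13 reads in a library and *Sema4f* at most 1. *Sema4a* had 5, 0 and 7 reads in the GFP libraries and 1, 0 and 0 in the Cre libraries, and with GFP 1_1 also at 0 the groups overlapped.

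Class 5 held the semaphorin with a clear difference. *Sema5a*, a transmembrane ligand with thrombospondin repeats that both attracts and repels axons and is a known ligand of plexin B3, lies on chr15:32244813-32696341. Its normalized counts were 383, 415 and 399 in the GFP libraries and 148, 194 and 188 in the Cre libraries. The GFP libraries lay close together and all of them were above all Cre libraries, at means of 399 ± 16.4 and 176 ± 25.2 (SD, n = 3 each). By the ratio of the means *Sema5a* was 2.26-fold lower in Cre (log2 fold change -1.18, standard error 0.15, limma adjusted p = 0.00105), and it passed under all 16 other settings of the test, with adjusted p between 6.88e-08 and 0.0113. Its paralog *Sema5b* did not follow it. *Sema5b* had 293, 219 and 304 in GFP and 157, 291 and 260 in Cre, with 1 low Cre library and the others inside the GFP range (-0.24, standard error 0.23, limma adjusted p = 0.567). Without Cre replicate 2 the sign of *Sema5b* turned to 0.03.

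The class 6 semaphorins, transmembrane ligands of the A-type plexins, were the most abundant ligands, and none of the 3 tested passed. *Sema6a*, known for its role in the migration of cerebellar granule cells, ranged from 941 to 1094 in GFP and from 1060 to 1298 in Cre (0.19, limma adjusted p = 0.377). *Sema6d* ranged from 681 to 859 and from 704 to 902 (0.07, limma adjusted p = 0.788), and its sign turned without GFP replicate 2 (-0.0084) or without Cre replicate 3 (-0.0074). *Sema6c* was lower in level, at 29.3 to 45.9 and 44.3 to 72.3, with the lowest Cre library inside the GFP range (0.56, standard error 0.29, limma adjusted p = 0.251). *Sema6b*, under the filter on low values, had 12.8, 4.39 and 5.33 in the GFP libraries and 3.46, 4.30 and 3.58 in the Cre libraries, from 3 to 14 reads in a library. The groups did not overlap, but the lowest GFP and highest Cre library were nearly equal at 4.39 and 4.30. *Sema7a*, the lipid-anchored class 7 member that signals through integrins and plexin C1, had 0 to 5 reads.

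**Figure D1:**
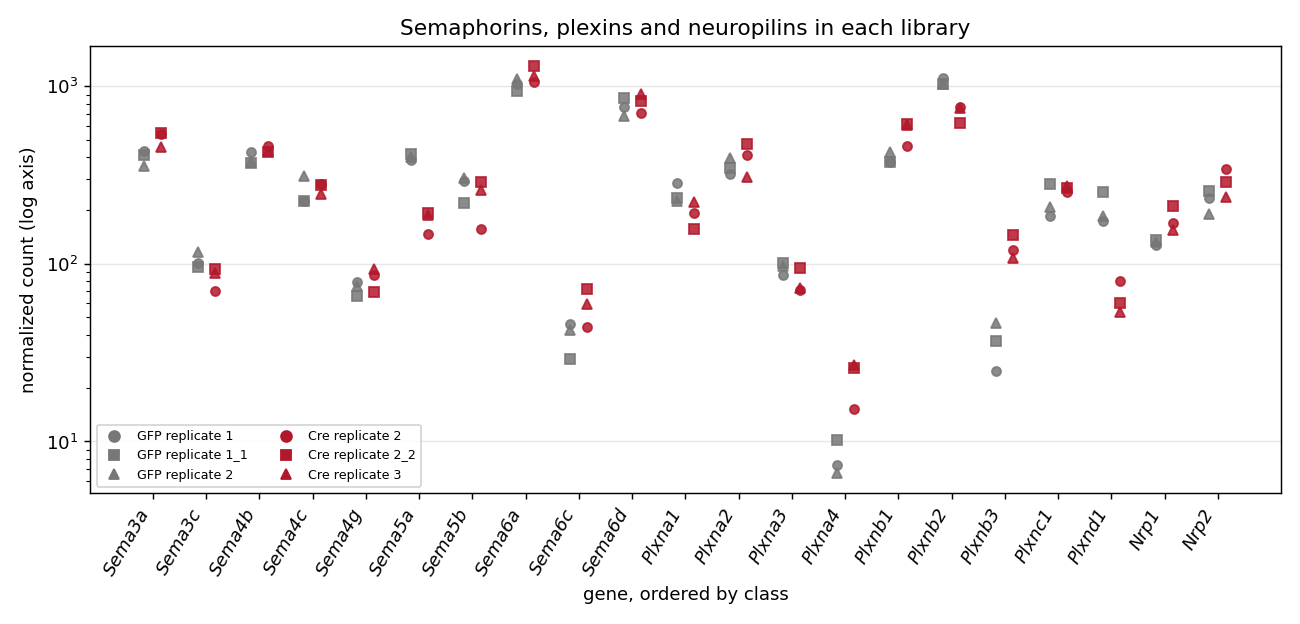
Normalized count (log axis) of the 21 tested members in each of the 6 libraries, ordered by class, with GFP libraries in grey and Cre libraries in red and 1 symbol shape per library. *Sema5a*, *Plxnb2* and *Plxnd1* have all red points below all grey points and *Plxnb3* all red points above. The same holds, without passing the test, for *Sema3c* and *Plxna1* (below) and *Sema3a*, *Sema4b*, *Plxna4*, *Plxnb1* and *Nrp1* (above). Most semaphorins have mixed points.

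All 9 plexins were tested, and 3 passed (33.3%, against 9.96% of all genes tested). Of these, 1 rose and 2 fell, where 4.74% of all genes were higher and 5.22% lower. *Plxnb3*, on chrX:73756556-73772510, encodes a plexin known from glial cells and as a receptor of Sema5A. Its normalized counts were 24.8, 36.6 and 46.7 in the GFP libraries and 119, 145 and 108 in the Cre libraries. The lowest Cre library had more than the highest GFP library by a wide margin, and the means were 36.0 ± 11.0 and 124 ± 19.1 (SD, n = 3 each). *Plxnb3* was 3.45-fold higher in Cre (log2 fold change 1.79, standard error 0.27, limma adjusted p = 0.00226), and it passed under all 16 other settings, with adjusted p between 1.28e-06 and 0.02. The sums of the astrocyte and oligodendrocyte lineage markers were also higher in the Cre libraries. The astrocyte sum was higher mostly through *S100b*, with *Aldh1l1* going the other way, and the oligodendrocyte lineage sum mostly through *Olig2*. The part of these markers in the *Plxnb3* value was not tested.

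*Plxnd1*, on chr6:115954811-115995339, encodes the receptor of Sema3E and is best known from blood vessels, although neurons and progenitors also make it. It had normalized counts of 174, 253 and 185 in the GFP libraries and of 80.3, 60.3 and 53.7 in the Cre libraries. The groups did not overlap, and the means were 204 ± 42.6 and 64.8 ± 13.9 (SD, n = 3 each), a 3.15-fold difference (log2 fold change -1.64, standard error 0.22, limma adjusted p = 0.00129). It also passed under all 16 other settings, with adjusted p between 3.64e-08 and 0.012. The endothelial markers *Cdh5* and *Cldn5* were at 0 reads in all 6 libraries. *Pecam1* was at 5.51 to 10.2 in GFP and 1.72 to 4.48 in Cre, from 2 to 7 reads in a library. *Kdr* had means of 24.5 and 8.74 (-1.34, limma adjusted p = 0.0677). *Tek* went the other way, at means of 2.13 in GFP and 5.08 in Cre, from 1 to 12 reads in a library. Their relation to the *Plxnd1* value was not tested.

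*Plxnb2*, on chr15:89155546-89182018, encodes a receptor of Sema4C and Sema4D with a known role in proliferating neural progenitors. It had the highest level per length of all members in GFP, with normalized counts of 1113, 1033 and 1028 in the GFP libraries and 770, 624 and 756 in the Cre libraries. The groups did not overlap, at means of 1058 ± 47.8 and 717 ± 80.4 (SD, n = 3 each), and *Plxnb2* was 1.48-fold lower in Cre (log2 fold change -0.57, standard error 0.13, limma adjusted p = 0.0171). This call was less firm than those above. It passed in 11 of 16 other settings and was lost without GFP replicate 1 (adjusted p = 0.102), GFP replicate 1_1 (0.0608), GFP replicate 2 (0.0635) or Cre replicate 2_2 (0.0803), and with GFP replicates 1 and 1_1 averaged (0.0718, all limma).

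*Plxnb1*, the receptor of Sema4D that signals to RhoA, had normalized counts of 377, 377 and 429 in the GFP libraries and 462, 616 and 603 in the Cre libraries. All Cre libraries were above all GFP libraries, and the adjusted p just missed the threshold (log2 fold change 0.50, standard error 0.15, limma adjusted p = 0.0572). It passed in 3 of 16 other settings, among them DESeq2 on the recovered reads (adjusted p = 0.0451), Cre replicates 2 and 2_2 averaged (limma, 0.0367) and without Cre replicate 2 (limma, 0.00809). An antisense gene of low count, *Gm7628*, shares 210 bases of *Plxnb1* exons and had 27 reads over all libraries.

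The A-type plexins, which pair with neuropilins or bind class 6 semaphorins directly, did not pass. *Plxna4* was the member nearest to the filter, at 7.34, 10.2 and 6.67 in the GFP libraries and 15.2, 25.8 and 26.9 in the Cre libraries, and its mean of 8.08 in GFP shows that it was tested through its Cre values. Its groups did not overlap (1.36, standard error 0.42, limma adjusted p = 0.0649), and it passed in 1 of 15 other settings, without Cre replicate 2 (limma adjusted p = 0.037). It rested on 20 reads over the GFP libraries and 82 over the Cre libraries. *Plxna1* had 284, 236 and 227 in GFP and 193, 158 and 223 in Cre, with Cre replicate 3 just under the lowest GFP library (-0.39, standard error 0.18, limma adjusted p = 0.199). *Gm16896*, annotated on the opposite strand, shares 10.7% of the exon bases of *Plxna1*, and the kit used does not mark strand. *Plxna2* ranged from 319 to 393 and from 311 to 476 (0.16, limma adjusted p = 0.605) and *Plxna3* from 86.3 to 101 and from 71.3 to 94.7 (-0.25, limma adjusted p = 0.483). *Plxnc1*, the receptor of Sema7A, ranged from 186 to 281 in GFP and from 253 to 273 in Cre (0.25, limma adjusted p = 0.398).

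**Figure D2:**
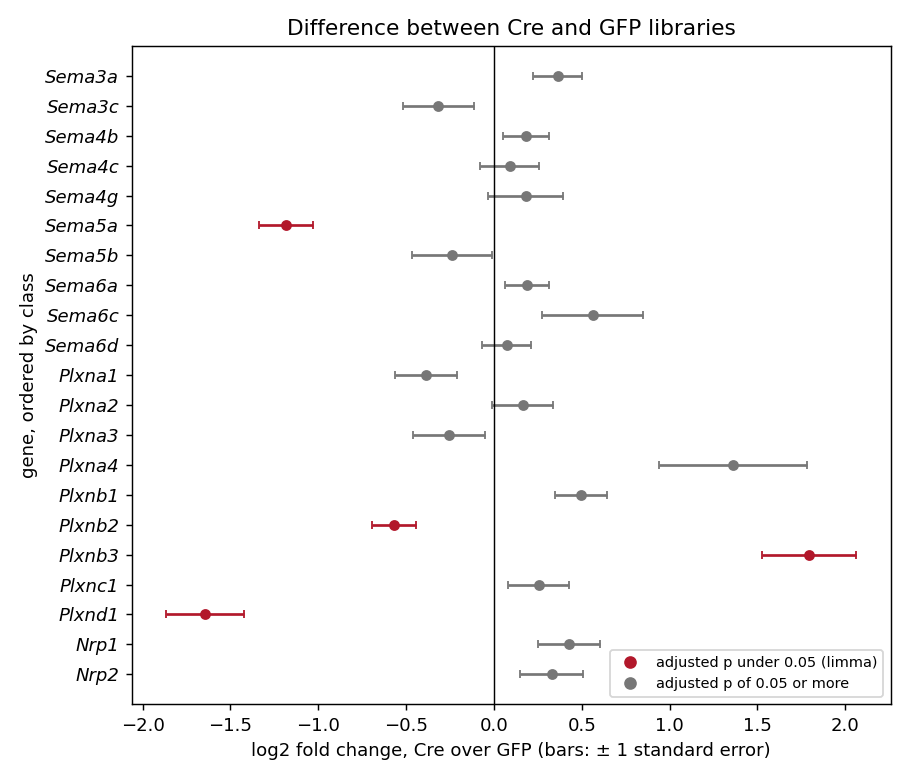
Log2 fold change of Cre over GFP on the log2(normalized count + 1) scale for the 21 tested members, with bars of 1 standard error from limma and in red the members with an adjusted p under 0.05. *Plxnb3* lies at 1.79, *Plxnb2* at -0.57, *Sema5a* at -1.18 and *Plxnd1* at -1.64, and the other 17 members lie between -0.39 and 1.36 in grey.

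To compare levels between genes, reads were divided by exon length and by the total of recovered reads (RPKM), with exon lengths from GENCODE M1, since the annotation behind the counts is not given in the sources used here. On this scale *Plxnb2* was the most abundant member in GFP, at 13.8 ± 1.02 RPKM, followed by *Sema6a* at 11.1 ± 1.19. In Cre their order was reversed, with *Sema6a* at 12.7 ± 1.22 and *Plxnb2* at 9.35 ± 1.11 RPKM (SD, n = 3 each). *Sema6d* (6.90 ± 0.60 and 7.31 ± 0.77 RPKM in GFP and Cre) and *Sema4b* (6.83 ± 0.76 and 7.76 ± 0.46 RPKM) came next. Neither passed the test on normalized counts. Ranked by RPKM among the 31 members, *Plxnd1* went from place 11 to place 20, *Sema5a* from place 9 to place 16 and *Plxnb3* from place 20 to place 14.

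The make-up of the plexins on this scale shows a shift within the B type. The RPKM of all 9 plexins summed to 29.7 to 30.6 in the GFP libraries and to 27.2 to 27.4 in the Cre libraries. The B type held 61.1 ± 2.86% of this sum in GFP and 62.8 ± 1.49% in Cre, ranges that overlapped. Within it the share of *Plxnb2* was 45.5 ± 2.80% and 34.3 ± 3.95%, that of *Plxnb1* 13.9 ± 1.21% and 21.9 ± 3.08%, and that of *Plxnb3* 1.74 ± 0.53% and 6.70 ± 1.06%. None of these 3 shares overlapped between the groups. *Plxnd1* held 8.90 ± 1.64% and 3.16 ± 0.73%, whereas the A type held 20.0 ± 0.73% and 20.9 ± 1.26%. The share of *Plxnc1* was 10.0 ± 1.96% in GFP and 13.2 ± 0.31% in Cre, without overlap. Among the semaphorins, class 5 held 15.1 ± 0.57% of the summed RPKM in GFP and 9.62 ± 1.92% in Cre, without overlap. Class 6 held 41.9 ± 1.25% and 44.6 ± 2.01%, class 4 30.5 ± 1.35% and 32.1 ± 3.24%, and class 3 12.2 ± 0.62% and 13.5 ± 0.90% (SD, n = 3 each). These shares are a description, since a share moves when any other gene of the sum does.

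**Figure D3:**
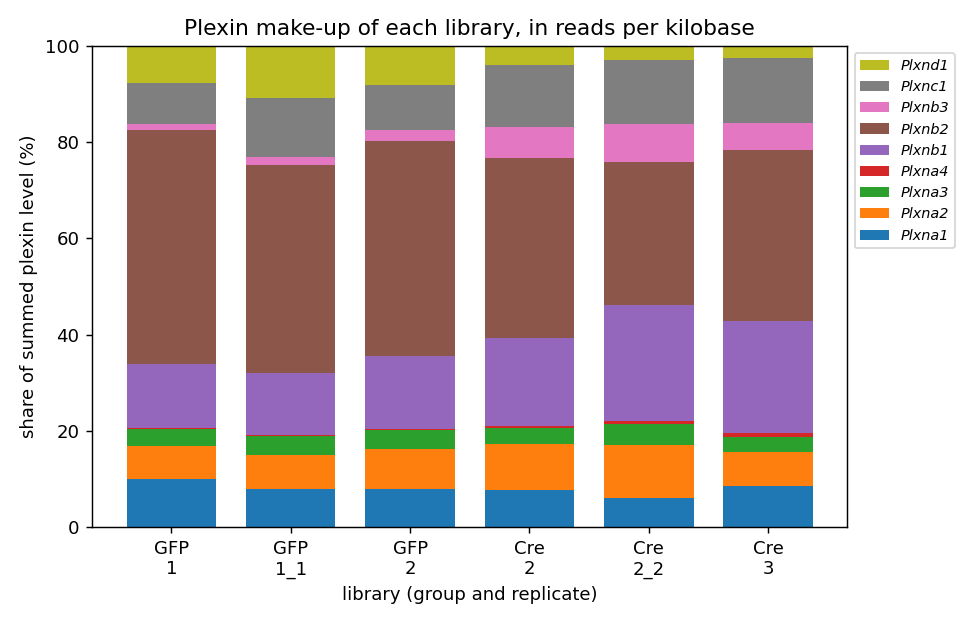
Share of each of the 9 plexins in the summed plexin RPKM of each library (stacked bars, percent, summing to 100), with 3 GFP libraries on the left and 3 Cre libraries on the right. The brown band of *Plxnb2* narrows from 43.2 to 48.6% in GFP to 29.8 to 37.4% in Cre, the purple band of *Plxnb1* and the pink band of *Plxnb3* widen, and the band of *Plxnd1* at the top shrinks.

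Neither neuropilin passed the test. *Nrp1*, the binding receptor of Sema3A and of VEGF, had normalized counts of 128, 136 and 132 in the GFP libraries and of 170, 211 and 156 in the Cre libraries. All Cre libraries lay above the narrow range of the GFP libraries (log2 fold change 0.43, standard error 0.17, limma adjusted p = 0.152). The gene of the microRNA *Mir1903* shares 80 bases of *Nrp1* exons on the same strand and had 129 reads over all libraries. *Nrp2*, the receptor that prefers Sema3F, had 236, 259 and 192 in GFP and 342, 288 and 237 in Cre, with Cre replicate 3 inside the GFP range (0.33, standard error 0.18, limma adjusted p = 0.284). Their summed level was 4.40 ± 0.26 RPKM in GFP and 5.80 ± 0.85 RPKM in Cre (SD, n = 3 each), and the ranges did not overlap. The balance of the pair, log2 of *Nrp2* over *Nrp1* normalized counts, was 0.89, 0.93 and 0.54 in GFP and 1.01, 0.45 and 0.61 in Cre. The mean difference was -0.10 (exact permutation test, two-sided, p = 0.8, where 3 against 3 libraries cannot go below 0.1), and it turned to 0.02 without Cre replicate 2_2.

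Set beside their partners, ligand and receptor moved apart in 1 known pair. *Sema5a* was lower and its receptor *Plxnb3* higher, both past the test. The fall of *Plxnb2* stood beside *Sema4c* at log2 fold change 0.09, which did not pass. *Plxnd1* and *Plxnb1* were read in libraries with few reads of their best known ligands, as *Sema3e* summed to 10 reads in each group and *Sema4d* to 18 reads in GFP and 26 in Cre. *Plxnc1* likewise had 551 reads over the GFP libraries and 982 over the Cre libraries, while its ligand *Sema7a* had 8 in each group. These sums are raw reads, and the Cre libraries were sequenced more deeply. In normalized counts the groups overlapped for *Plxnc1* (0.25, limma adjusted p = 0.398). *Sema6a* and *Sema6d* were abundant beside their A-type receptors *Plxna1* and *Plxna2*, with *Plxna4* far lower at 0.06 ± 0.01 RPKM in GFP and 0.17 ± 0.05 in Cre.

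Of a list of 57 partners and downstream genes of the receptors, 47 were tested, and 10 passed (21.3%, against 9.96% of all genes), 4 of them higher and 6 lower. Over all genes tested 4.74% were higher and 5.22% lower. The list was chosen with earlier results of these data known, so its share is a description. The median over the 47 was 0.04 on the log2 scale, beside -0.001 over all genes. Among the co-receptors *Chl1*, an adhesion molecule of the L1 family that forms a complex with neuropilin 1 in the response to Sema3A, had 405, 401 and 345 in GFP and 2312, 2439 and 2850 in Cre. It rose more than any other gene of the list (log2 fold change 2.72, standard error 0.13, limma adjusted p = 7.39e-07). *Itga1*, which pairs with *Itgb1* in the integrin that binds Sema7A, rose from means of 141 ± 19.5 to 286 ± 38.2 (1.02, limma adjusted p = 0.00462), while *Itgb1* did not pass (-0.07, limma adjusted p = 0.782). Of the 3 tested VEGF ligands of neuropilins, *Pgf* fell from 54.0 ± 9.30 to 25.1 ± 8.40 (-1.11, limma adjusted p = 0.0489) and kept its call in 5 of 15 other settings.

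Downstream of the plexins, the genes that passed were GTPases, their regulators, kinases and MICAL oxidases. *Sh3bp1*, a Rac-inactivating protein, had 421, 379 and 455 in GFP and 181, 146 and 152 in Cre (-1.39, standard error 0.15, limma adjusted p = 3.89e-04). *Pak1*, a kinase driven by Rac that acts on actin, had 618, 502 and 600 in GFP and 254, 250.5 and 264 in Cre, again without overlap (-1.15, standard error 0.14, limma adjusted p = 6.17e-04). *Rnd1*, a GTPase that binds the inner part of plexins, fell from 45.2 ± 6.34 to 15.1 ± 7.47 (-1.64, limma adjusted p = 0.0291). The actin-oxidising enzymes *Mical2* (-0.92, limma adjusted p = 0.0397) and *Mical1* (-0.60, limma adjusted p = 0.0408) fell, and *Mical3* did not pass (-0.09). *Mras*, a Ras relative of the kind that plexins switch off, rose from 454 ± 22.0 to 697 ± 52.3 (0.62, limma adjusted p = 0.0108). *Cdk5r1*, the activator of the kinase Cdk5, rose from 481 ± 77.6 to 771 ± 127 (0.68, limma adjusted p = 0.0241, SD and n = 3 throughout). None of the 5 CRMP genes, which carry the Sema3A signal to microtubules, passed (log2 fold changes of -0.40 to 0.29). *Chl1*, *Itga1*, *Sh3bp1* and *Pak1* passed under all 16 other settings, *Cdk5r1* in 13, *Mras* in 12, *Mical1* and *Mical2* in 11 of 16, and *Rnd1* in 10 of 15.

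**Figure D4:**
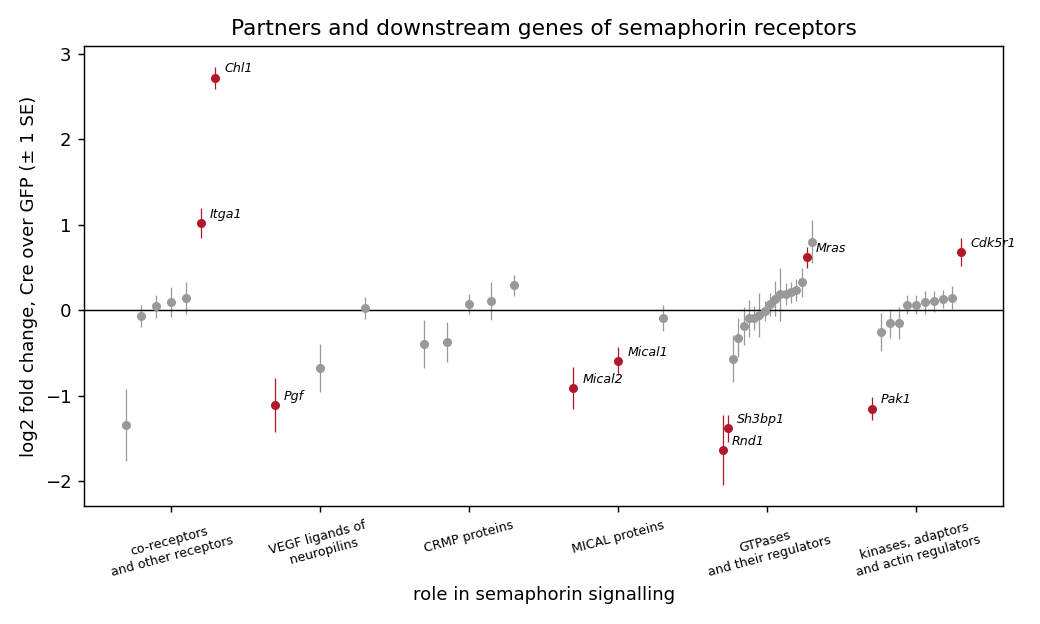
Log2 fold change of Cre over GFP on the log2(normalized count + 1) scale, with bars of 1 standard error, for the 47 tested partners and downstream genes, grouped by role. Genes with a limma adjusted p under 0.05 are red and named, from *Chl1* at 2.72 to *Rnd1* at -1.64, and the 5 CRMP genes are all grey.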

How the data were processed

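RNA-seq values of 6 libraries, 3 labelled GFP and 3 labelled Cre, were grouped from the sample labels. Libraries were made with the TruSeq RNA Library Prep Kit v2, which does not mark strand. The study's methods name TopHat with mm9 and mm10, while the submitters' processing notes name STAR 2.7, mm10 and DESeq2. The read counter, strand setting and annotation are not given in the sources used here. The deposited values are normalized counts, a signal the authors made by dividing reads by 1 size factor per library. The authors' fold changes, errors, test statistics and p-values in the same table were not used. In all libraries 100% of values were whole multiples of 1 read (tolerance 0.01 of a read), and reads were recovered. 1 gene without a value in 1 library was left out. limma 3.58.1 (R 4.3.3; lmFit, eBayes with trend) was fitted on log2(normalized count + 1) for genes with a mean of at least 10, which understates the change of low genes, with Benjamini-Hochberg adjustment and a threshold of 0.05. Alternatives were edgeR 4.0.16 and DESeq2 1.42.0 on recovered reads, pseudocounts of 0.5 and 5, no filter, a mean of at least 50, TMM or total count scaling, averaging GFP 1 and 1_1 or Cre 2 and 2_2, a threshold of 0.1, and leaving out each library. Of these, 16 count as settings of the test for a gene, since the threshold changes no fit. Exon lengths and overlaps came from GENCODE M1 and gene coordinates from RefSeq on GRCm38.p6. The members, gene lists, motifs and tests were chosen with earlier results of these data known. All members are named, with values per library where the groups did not overlap or the adjusted p was under 0.05, and genes of the pathway list are named where they passed.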

Additional observations from a re-analysis of the deposited data

How the results depend on the processing

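The 21 tested members gave 355 values under the 17 alternatives. Of these, 341 kept their direction and their side of the threshold, 6 came to pass the test (*Plxnb1* and *Plxna4*), 5 no longer passed it (all *Plxnb2*) and 3 changed sign. The signs that changed were those of *Sema5b*, whose log2 fold change ran from -0.41 to 0.0294 over the fits without 1 library, and of *Sema6d*, which ran from -0.0084 to 0.17, and neither passed in any fit. Members higher numbered 2 with DESeq2 on recovered reads and with Cre 2 and 2_2 averaged, 3 at an adjusted p under 0.1, and 1 to 3 over the fits without 1 library, the 3 arising without Cre replicate 2. Over all genes 660 passed with GFP 1 and 1_1 averaged, 2380 at an adjusted p under 0.1, and between 558 (without GFP replicate 1) and 2396 (without Cre replicate 2) when 1 library was left out, against 1478. Of the partner and downstream genes, 4 passed with GFP 1 and 1_1 averaged and 4 to 12 without 1 library, against 10. The neuropilin balance ran from -0.26 to 0.0211 without 1 library, the latter without Cre replicate 2_2. The cause of these changes was not tested, beyond the smaller number of libraries in such fits. Other scalings moved the median of all genes by under 0.1. The 10 members under the filter did not enter the main test, and whether they differed was not assessed. No paired analysis was possible because the groups share fewer than 2 replicate numbers.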
